A study of Mus musculus with 6 samples.

Results

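Genes for 9 transcription factors that direct myeloid differentiation were followed across 6 arrays of mouse leukaemia cells with and without AES. They are Spi1, which encodes the ETS factor PU.1, the C/EBP family members Cebpa, Cebpb, Cebpd, Cebpe and Cebpg, and the lineage factors Irf8, Gfi1 and Klf4. They were chosen by name, and for each the probe set with the highest mean over the 6 arrays was used; 9 of 9 were measured, each by a single probe set, among 19938 genes.

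The cells were C57BL/6 fetal liver cells of mid-gestation embryos that carried AML1-ETO9a, a shortened leukaemogenic form of the AML1-ETO fusion of t(8;21), and that were either AES wildtype or carried floxed AES alleles; the fusion was thus common to both groups. Recipients of the transplanted cells were given tamoxifen 4 weeks later to delete AES, a short Groucho/TLE family co-repressor. Spleen cells sorted for GFP, which marks the cells that carry AML1-ETO9a, were profiled on 6 arrays, 3 for each AES genotype. Wildtype cells were taken when mice died of leukaemia and knockout cells when the experiment ended, so genotype and time of collection cannot be told apart. No source used here gives the recipients' age, the Cre driver or whether each sample came from its own mouse, so p-values measure only the spread between these samples, which may be technical.

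PU.1 opens the myeloid programme from multipotent progenitors and is needed for both macrophages and granulocytes. C/EBP-alpha acts with it at the step to granulocyte-monocyte progenitors, and C/EBP-epsilon later drives the genes of secondary granules. IRF8 and KLF4 favour monocytes and dendritic cells, whereas GFI1 is a repressor that favours granulocytes. The AML1-ETO fusion is known to interfere with C/EBP-alpha and PU.1, which makes these genes a usual readout in this leukaemia.

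AES itself, listed as Tle5, averaged 11.11 ± 0.014 on the log2 scale in wildtype cells and 8.99 ± 0.29 in knockout cells (SD, n = 3 each), with groups that did not overlap. Its log2 difference of -2.12 had an adjusted p of 0.23 with limma, the test used below for the factors. Values are the authors' processed log2 values, and array medians ran from 6.47 to 6.65; there are no detection calls, so values near or below these medians may be background. Among 8 markers of myeloid blasts, Kit and Myb lay above the median on 6 of 6 arrays, while the granule genes Mpo and Elane did so on 4 and the progenitor marker Cd34 on 3. All 6 measured erythroid markers, among them Gata1 and Klf1, lay above the median on every array. So did the mast cell and basophil genes Cpa3, Ms4a2, Fcer1a, Hdc and Gata2, whereas Mcpt8 and Prss34 did so on 2 arrays each. The 7 markers of those cells had a mean level of 11.27, 8.30 and 9.65 on wildtype arrays 1 to 3. On knockout arrays 1 to 3 that level was 8.06, 10.61 and 10.19. The sorted cells thus did not show myeloid blast markers alone. Libraries also stood apart within groups. Mature neutrophil markers (13 of 13 measured) had a mean log2 level of 8.59, 7.30 and 5.49 on wildtype arrays 1 to 3 and of 5.42, 8.80 and 8.95 on knockout arrays 1 to 3. The Y-linked gene Uty was at 9.03 to 9.30 on the wildtype arrays and 9.18 on knockout array 2, against 4.14 and 4.77 on knockout arrays 1 and 3. Kdm5d (5.15 and 5.45) and Eif2s3y (4.09 and 5.26) were low on the same knockout arrays. Y-linked expression, and with it the sex of the cells, is thus partly confounded with AES genotype.

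No factor of the 9 passed the test between genotypes. AES itself did not pass it either, so a missing call does not show that a gene was unchanged. With limma and Benjamini-Hochberg adjustment over 19938 genes, 0 of 9 were called at an adjusted p of 0.05, against 0 of all genes (0 percent), and 0 of 9 had an unadjusted p under 0.05, against 2.53% of all genes. The 2 groups overlapped for 9 of 9 factors, whereas 7.15% of all genes had groups that did not. Knockout means were higher for 4 factors and lower for 5, and the median log2 difference was -0.06, against 0.003 over all genes. In each case the difference was smaller than the larger of the SDs of the groups. Adjusted p was 1.00 for each of the 9, and an exact two-sided permutation test over the 6 arrays, which cannot go below 0.1 here, gave values from 0.3 to 1.

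**Figure D1:**
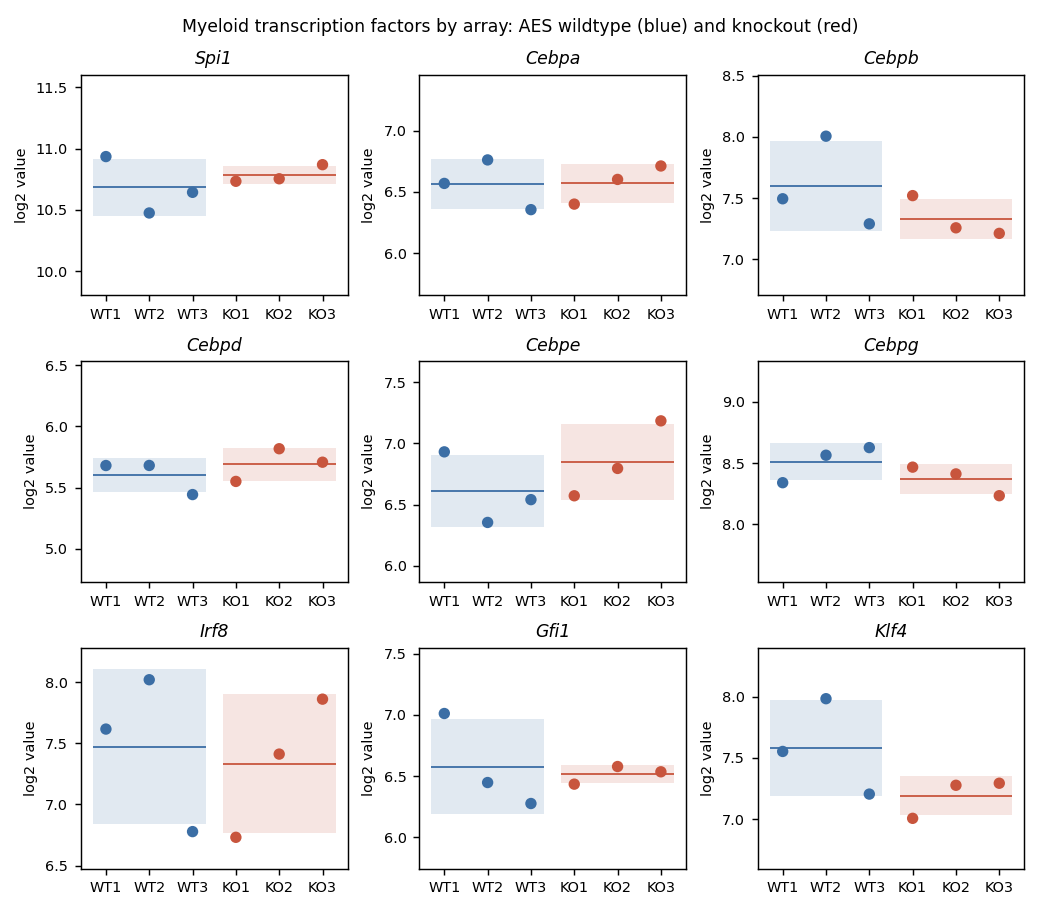
Log2 values of the 9 transcription factor genes on the 3 AES wildtype (WT, blue) and 3 AES knockout (KO, red) arrays; lines are group means, shaded bands 1 SD, and each panel spans the same number of log2 units. In every panel the groups overlap, and Irf8 has the widest scatter, from 6.73 to 8.02.

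Spi1 was well above the array median on every array, and its span, the highest minus the lowest value, was 0.46, larger than that of 56.9% of all genes. It measured 10.93, 10.47 and 10.64 on wildtype arrays 1 to 3 and 10.73, 10.75 and 10.87 on knockout arrays 1 to 3. The highest and the lowest value were both wildtype, and the knockout values lay between them. The group means were 10.68 ± 0.23 and 10.78 ± 0.073 (SD, n = 3 each), a log2 difference of 0.10 (SE 0.13) with a 95% interval from -0.23 to 0.43. Leaving out 1 array at a time gave -0.004 (without wildtype array 2, the lowest) to 0.23 (without wildtype array 1).

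Cebpa, the factor that starts granulocyte commitment, was close to the array medians, above them on 3 arrays. Its values were 6.57, 6.76 and 6.35 on wildtype arrays 1 to 3 and 6.40, 6.60 and 6.71 on knockout arrays 1 to 3. The highest and lowest were again wildtype. The difference of 0.01 (SE 0.14; 95% interval -0.33 to 0.35) was the smallest of the 9, and its sign changed in 5 of the 15 alternatives, where it ran down to -0.09. Some of the 15, such as those that change only the variance, could not alter a difference.

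Cebpe, which drives the late granule programme, had 6.93, 6.35 and 6.54 on wildtype arrays 1 to 3 and 6.57, 6.80 and 7.18 on knockout arrays 1 to 3. Wildtype array 1 and knockout arrays 2 and 3 were the highest; these were also the arrays with the highest neutrophil markers. The means were 6.61 ± 0.29 and 6.85 ± 0.31 (SD, n = 3 each), a difference of 0.24 (SE 0.21; 95% interval -0.29 to 0.77), the largest on the side of the knockout. Mature neutrophil markers differed by a median of 0.63 in the same direction, with 0 called. Of their means 13 of 13 were higher in knockout cells, whereas 49.1% of all genes had lower ones. Their mean level ran from 5.49 to 8.59 on wildtype and from 5.42 to 8.95 on knockout arrays, and this direction was not checked with arrays left out. The granulocyte targets of C/EBP proteins described below share genes with these markers. Their median turned to -0.39 without wildtype array 3 and to -0.22 without knockout array 3, and stayed positive without any other single array. The part of the neutrophil markers in the Cebpe difference was not tested. Leaving out 1 array at a time gave Cebpe differences from 0.08 (without knockout array 3) to 0.40 (without wildtype array 1), with 0.11 without wildtype array 2 and 0.38 without knockout array 1. In these bulk samples, fewer cells of a type and less RNA per cell cannot be told apart.

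Cebpb, an inducible member that serves emergency granulopoiesis and macrophages, had its high value on wildtype array 2. It measured 7.49, 8.01 and 7.29 in wildtype and 7.52, 7.26 and 7.21 in knockout cells. The other 5 values lay within 7.21 to 7.52. The means of 7.60 ± 0.37 and 7.33 ± 0.17 (SD, n = 3 each) gave a difference of -0.27 (SE 0.20; 95% interval -0.77 to 0.24), which was -0.06 without wildtype array 2 and -0.42 without wildtype array 3. Without both wildtype array 3 and knockout array 1 it was -0.52.

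The last members of the family were flatter. Cebpd, an acute-phase member, measured 5.68, 5.68 and 5.44 in wildtype and 5.55, 5.82 and 5.71 in knockout cells, below the median on 6 of 6 arrays, so its RNA may not have been detected. Cebpg, a short member that lacks a classical activation domain and pairs with other bZIP proteins, measured 8.34, 8.56 and 8.63 against 8.47, 8.41 and 8.23. Its difference was -0.14 (SE 0.11; 95% interval -0.42 to 0.14), and that of Cebpd was 0.09 (SE 0.11; 95% interval -0.19 to 0.37). With 1 array left out, they ran from -0.22 to -0.07 and from 0.01 to 0.16.

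Among the lineage factors, Irf8 varied most from array to array. Its values were 7.62, 8.02 and 6.78 on wildtype arrays 1 to 3 and 6.73, 7.41 and 7.86 on knockout arrays 1 to 3. Wildtype array 3 and knockout array 1 were low by similar amounts, and the other 4 were at 7.41 or above, so the scatter lay within both genotypes. The means were 7.47 ± 0.63 and 7.33 ± 0.57 (SD, n = 3 each), a difference of -0.14 (SE 0.41) whose 95% interval, -1.15 to 0.88, was the widest of the 9. The sign changed without wildtype array 2 (0.14) and without knockout array 1 (0.16), and the difference was -0.48 without wildtype array 3 and -0.40 without knockout array 3. The span of Irf8 was 1.29 and exceeded that of 89.8% of all genes. Monocyte and macrophage markers (10 of 11 measured) had a mean level of 6.89 to 7.88 in wildtype and 6.46 to 8.25 in knockout arrays. Of these, 9 of 10 were lowest on wildtype array 3 or knockout array 1, and their part in the Irf8 values was not tested.

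Klf4, a zinc-finger factor downstream of PU.1 in monocytes, had the largest difference of the 9. It measured 7.55, 7.98 and 7.20 on wildtype arrays 1 to 3 and 7.01, 7.28 and 7.29 on knockout arrays 1 to 3. Wildtype arrays 1 and 2 lay above all knockout values, and wildtype array 3 lay among them. Means were 7.58 ± 0.39 and 7.19 ± 0.16 (SD, n = 3 each); the knockout mean was 0.764-fold the wildtype mean, a log2 difference of -0.39 (SE 0.21; 95% interval -0.91 to 0.14; limma adjusted p = 1.00). It kept its sign in every alternative tried, some of which could not change it. It was -0.19 without wildtype array 2 and -0.58 without wildtype array 3.

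Gfi1 was near the array medians, above them on 2 arrays. Wildtype array 1 was high at 7.01, and the other 5 values ran from 6.28 (wildtype array 3) to 6.58. Wildtype array 2 was at 6.45 and knockout arrays 1 to 3 at 6.44, 6.58 and 6.54. Its difference was -0.06 (SE 0.20; 95% interval -0.55 to 0.43) and became 0.15 without wildtype array 1 and -0.21 without wildtype array 3.

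**Figure D2:**
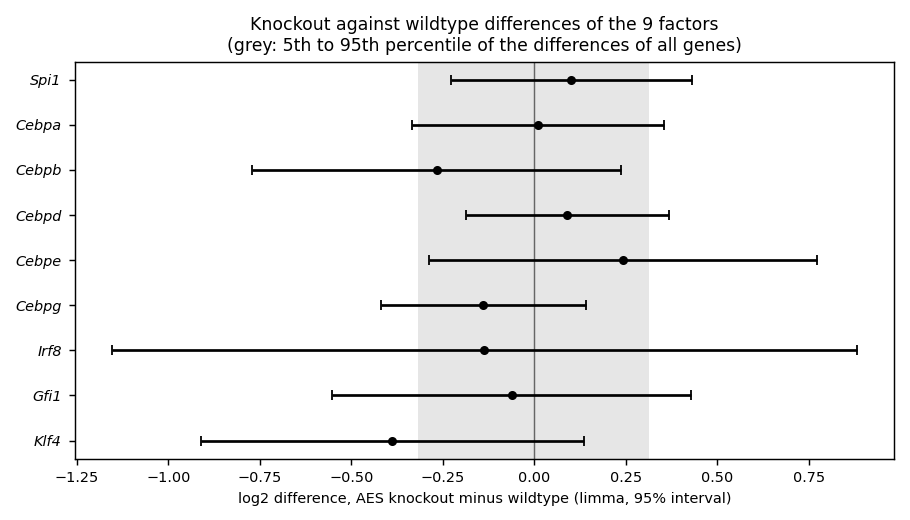
Log2 difference (AES knockout minus wildtype) of each factor with its 95% interval from limma; the grey band spans the 5th to 95th percentile of the differences of all 19938 genes (-0.32 to 0.31). Every interval includes 0, and Klf4 at -0.39 is the 1 factor whose estimate lies outside the band.

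Every array held the highest or lowest value of at least 1 factor. Wildtype array 2 held the highest value of 4 factors (Cebpa, Cebpb, Irf8 and Klf4) and the lowest of Spi1 and Cebpe. Wildtype array 3 held the lowest value of 3 (Cebpa, Cebpd and Gfi1) and knockout array 1 that of Irf8 and Klf4. Knockout array 3 held the lowest value of Cebpb and Cebpg and the highest of Cebpe. By the measure of likeness used here, the mean absolute difference between profiles centred on their own 6-array means, the genes most like Irf8 were Fam178b (0.116 log2 units), Lrp1 (0.118), an endocytic receptor of macrophages, and Stk17b (0.124), a serine/threonine kinase. No other factor reached the span of 1 log2 unit required for this search; Klf4 came closest, at 0.98.

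Promoter sequences are shown for Irf8, Klf4, Cebpb and Cebpa, the 4 factors that were highest on wildtype array 2, to compare what their start regions hold. RefSeq windows of 250 bases before to 50 after the gene start (GRCm38.p6) were matched by symbol for 6 of 9 factors. The windows shown are those of Irf8 (chr8:120736108-120736407, plus strand), Klf4 (chr4:55532426-55532725, minus strand), Cebpb (chr2:167688665-167688964, plus strand) and Cebpa (chr7:35119043-35119342, plus strand). A further Irf8 window at chr8:120738389-120738688 held none of the motifs searched and is not shown. The sequences run 5′ to 3′ along the gene, with capitals on either-strand matches to TTCNNNGAA (the form bound by STAT factors), GGGCGG (bound by Sp and KLF factors), TGACG (the core bound by CREB and ATF factors) and TATAAA (bound by the TATA-binding protein).
Irf8: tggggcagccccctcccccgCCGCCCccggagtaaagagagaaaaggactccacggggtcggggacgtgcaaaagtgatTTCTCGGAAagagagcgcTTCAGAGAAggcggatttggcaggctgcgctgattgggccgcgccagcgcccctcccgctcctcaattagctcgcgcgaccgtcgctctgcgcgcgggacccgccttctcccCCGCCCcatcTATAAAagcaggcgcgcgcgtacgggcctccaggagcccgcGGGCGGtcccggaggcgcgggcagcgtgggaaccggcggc
Klf4: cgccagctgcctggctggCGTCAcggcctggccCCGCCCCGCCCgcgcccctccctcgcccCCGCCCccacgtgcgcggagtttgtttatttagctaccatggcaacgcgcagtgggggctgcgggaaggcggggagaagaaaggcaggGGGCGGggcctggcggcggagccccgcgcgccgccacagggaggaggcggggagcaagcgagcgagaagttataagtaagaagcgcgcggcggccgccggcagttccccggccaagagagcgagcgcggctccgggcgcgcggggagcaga
Cebpb: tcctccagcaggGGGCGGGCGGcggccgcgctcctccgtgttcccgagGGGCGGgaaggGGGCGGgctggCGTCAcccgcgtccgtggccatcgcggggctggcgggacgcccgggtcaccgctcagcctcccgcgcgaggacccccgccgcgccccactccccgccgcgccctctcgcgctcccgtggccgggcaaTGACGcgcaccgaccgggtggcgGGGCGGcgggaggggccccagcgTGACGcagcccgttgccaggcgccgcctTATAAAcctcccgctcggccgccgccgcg
Cebpa: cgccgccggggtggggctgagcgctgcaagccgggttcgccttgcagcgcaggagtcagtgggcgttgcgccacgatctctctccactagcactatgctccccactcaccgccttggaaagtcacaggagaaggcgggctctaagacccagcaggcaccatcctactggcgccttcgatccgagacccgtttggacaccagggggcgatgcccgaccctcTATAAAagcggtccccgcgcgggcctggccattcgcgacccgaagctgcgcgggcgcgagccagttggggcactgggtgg

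No motif searched was common to the 4 windows shown. GGGCGG occurred 3 times in Irf8, 4 times in Klf4 and 5 times in Cebpb, some of these overlapping one another, and not in Cebpa; 35.7% of all 32851 windows held it. The Irf8 window held 2 matches to TTCNNNGAA, TTCTCGGAA starting 171 bases and TTCAGAGAA starting 153 bases before the gene start; 8.30% of all windows held at least 1 and 0.457% at least 2. Cebpb held 3 matches to TGACG, a motif in 20.8% of windows, the nearest 53 and 7 bases before the start, and Klf4 held 1. The TATAAA motif, found in 13.6% of windows, was present in Irf8, 31 bases before the start, and in Cebpa, 30 bases before it. In Cebpb it lay after the start, from base 22. The motifs TTGCNNAA (bound by C/EBP factors; 10.8% of windows), GAGGAA (bound by PU.1; 28.3%) and TGTGGT (bound by RUNX factors; 16.8%) had no match in these 4 windows. These are matches of letters only, and the motifs were chosen with the values known.

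Genes that work with or against the factors showed no call either. Of 10 measured partners and regulators of C/EBP proteins, 0 were called in either direction, and 10 of 10 had lower means in knockout cells (median -0.15), where 49.1% of all genes did. Their mean level was 8.61, 8.67 and 8.275 on wildtype arrays 1 to 3 and 8.24, 8.34 and 8.32 on knockout arrays 1 to 3. Wildtype array 3 thus lay among the knockout arrays. With 1 array left out, the median ran from -0.22 (without wildtype array 3) to -0.09 (without wildtype array 1). The smallest unadjusted p belonged to Trib2, a pseudokinase that promotes degradation of C/EBP-alpha. Trib2 measured 8.14, 8.45 and 7.08 in wildtype and 7.48, 6.49 and 7.24 in knockout cells, a difference of -0.82 (SE 0.43) with groups that overlapped. Ddit3, the inhibitory C/EBP relative CHOP, differed by -0.34, Atf5 by -0.19 and Batf3 by -0.14.

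Among 17 measured relatives, partners and antagonists of PU.1, 0 were called and 11 had higher and 6 lower means in knockout cells (median 0.05). The median was -0.13 without knockout array 3, -0.06 without wildtype array 3 and 0.20 without knockout array 1. Groups did not overlap for 1 of the 17, against 7.15% of all genes. That was Jun, a co-activator of PU.1, with 12.84, 12.59 and 12.39 in wildtype and 12.28, 11.95 and 12.31 in knockout cells (difference -0.43, SE 0.16, limma adjusted p = 1.00). The ETS factors Ets2, Fli1 and Etv6 differed by -0.67, 0.15 and 0.28, each with overlapping groups.

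Genes that GFI1 represses numbered 11 measured of 14 listed, with 0 called, 4 higher and 7 lower (median -0.02). Groups did not overlap for 1 of the 11, against 7.15% of all genes. That was Nab2, a co-repressor of EGR proteins, at 8.12, 8.08 and 8.04 in wildtype and 8.62, 8.43 and 8.36 in knockout cells. Its knockout values were the higher ones, and the difference was 0.39 (SE 0.093, limma adjusted p = 1.00). Its partner Egr1 differed by 0.39 as well (SE 0.57), but through knockout array 3 at 10.86, with the other 5 arrays between 8.74 and 9.80. Gfi1b, the erythroid paralogue of Gfi1, differed by -0.22 (SE 0.24), and Mir196b by -0.13. Mir196b lay below the array median on every array, so its RNA may not have been detected.

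Granulocyte target genes spanned wider ranges over the arrays than the factors did. The 20 measured granulocyte targets of C/EBP proteins had a median span of 3.57 log2 units (range 0.79 to 6.83), against 0.73 for the 9 factors (range 0.37 to 1.29) and 0.40 over all genes. All 20 were lowest on wildtype array 3 or knockout array 1, as were 21.0% of all genes. These were also the arrays with the lowest mature neutrophil markers. Camp, Ltf, Ngp, Lcn2, Mmp8, Mmp9, S100a8, S100a9 and Cd177 are on both lists, so this count is not independent of those markers. Ltf, the secondary granule protein lactoferrin, chosen as an example after its values were seen, measured 9.07, 7.21 and 5.43 on wildtype arrays 1 to 3 and 5.37, 9.21 and 9.28 on knockout arrays 1 to 3. The list deviated from its own 6-array mean by 1.31, -0.18 and -1.71 on the wildtype and by -1.84, 1.00 and 1.42 on the knockout arrays. Over the same arrays Cebpa stayed within 0.41 log2 units and Cebpe within 0.83. Both lay near the array medians and may hold background, which can narrow a span, so these spans do not show that the factors were constant.

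Between genotypes, 0 of these 20 targets were called, and 16 had higher and 4 lower means in knockout cells (median 0.39). The gelatinase Mmp9, the cathelicidin Camp, the neutrophil surface protein Cd177 and Lbp differed by 0.63, 0.51, 0.43 and 0.35, with SEs of 0.53, 0.66, 0.63 and 0.50. The median turned to -0.39 without wildtype array 3 and to -0.22 without knockout array 3. It was 1.06 without wildtype array 1, 1.19 without knockout array 1 and 0.03 without knockout array 2.

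**Figure D3:**
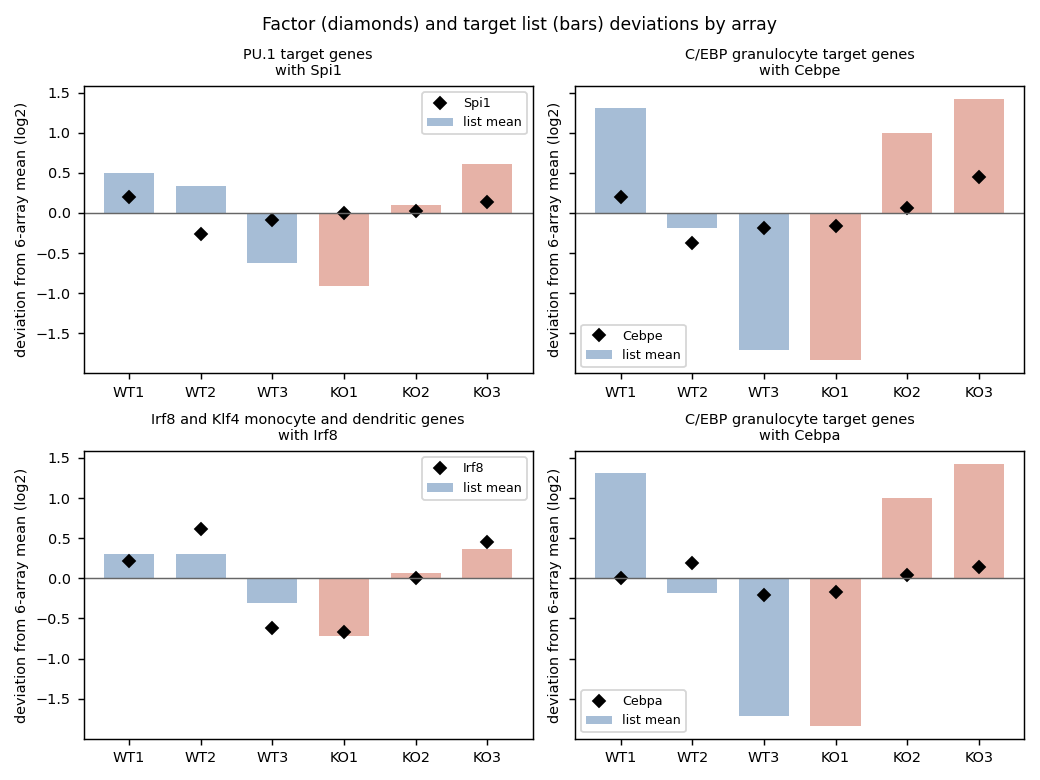
Mean deviation of a target list from its 6-array mean (bars, log2 units; blue wildtype, red knockout) with the deviation of a factor (diamonds) on the same arrays. The granulocyte targets of C/EBP proteins run from -1.84 to 1.42, whereas Cebpa and Cebpe, whose values lie near the array medians and may hold background, deviate far less. Irf8 and the monocyte and dendritic list are both below their means on wildtype array 3 and knockout array 1.

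PU.1 targets showed the same arrays at the bottom with a smaller range. Of 18 measured, 15 were lowest on wildtype array 3 or knockout array 1, and their mean deviation was 0.50, 0.33 and -0.63 in wildtype and -0.91, 0.10 and 0.61 in knockout arrays. Spi1 was at 10.64 and 10.73 on those arrays, above wildtype array 2 (10.47) and below the other 3 (10.75 to 10.93). Csf1r, the M-CSF receptor and a direct PU.1 target, measured 8.45, 8.59 and 6.74 in wildtype and 6.29, 7.88 and 9.16 in knockout cells, and Cybb, the NADPH oxidase subunit gp91-phox, 9.73, 9.52 and 7.40 against 5.28, 9.16 and 10.00. These genes were chosen as examples after their values were seen. Of the PU.1 targets, Csf3r is also on the C/EBP list and Itgam on the neutrophil marker list. Csf1r, Adgre1, Cd14 and Cd68 are also monocyte and macrophage markers. The count of 15 is thus not independent of those lists.

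Of the PU.1 targets, 0 were called, with 8 higher and 10 lower means in knockout cells (median -0.15). Groups did not overlap for 1 of the 18, against 7.15% of all genes. That was Csf2ra, a subunit of the GM-CSF receptor, at 9.30, 9.31 and 9.23 in wildtype and 9.13, 8.86 and 9.06 in knockout cells (difference -0.26, SE 0.094, limma adjusted p = 1.00). Its signalling partner Csf2rb differed by 0.32 (SE 0.18). The Fc receptor gene Fcgr3 had the largest difference, 1.50 (SE 0.55, limma adjusted p = 1.00), with 8.70, 7.37 and 6.53 in wildtype and 9.17, 8.67 and 9.27 in knockout cells. Wildtype array 1 overlapped the knockout arrays. Adgre1, the macrophage antigen F4/80, differed by -0.98 (SE 0.63). The list median was 0.37 without knockout array 1 and 0.12 without wildtype array 1, and -0.27 without wildtype array 3 and -0.25 without knockout array 3.

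The monocyte and dendritic genes linked to IRF8 and KLF4 (17 of 20 measured) had 0 calls, with 5 higher and 12 lower means in knockout cells (median -0.15, with 0.008 without knockout array 1, -0.32 without wildtype array 3 and -0.29 without knockout array 3). Their deviations were 0.30, 0.30 and -0.31 in wildtype and -0.72, 0.06 and 0.36 in knockout arrays, and 12 of 17 were lowest on wildtype array 3 or knockout array 1. Csf1r, Cx3cr1 and Ccr2 are also monocyte and macrophage markers, and Csf1r is also among the PU.1 targets. The count of 12 is thus not independent of those lists. The dendritic cell genes Clec9a and Xcr1 had differences of -0.51 and -0.52 (SE 0.28 and 0.29). Xcr1 was at 6.50 and 6.51 on wildtype arrays 1 and 2 and from 5.50 to 5.75 on the other 4. Both Clec9a and Xcr1 lay below the array median on every array, so their RNA may not have been detected. Cx3cr1 and Zeb2 differed by -0.23 and -0.20.

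**Figure D4:**
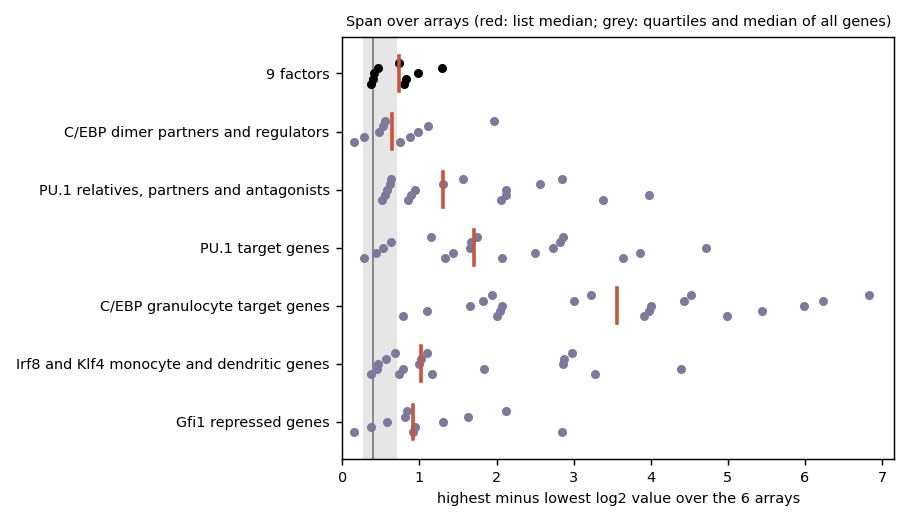
Span, the highest minus the lowest log2 value over the 6 arrays, for the 9 factors (black) and for genes of the 6 lists (points; vertical position within a row only separates points). Red bars are medians, 0.73 for the factors and 3.57 for the granulocyte targets of C/EBP proteins; the grey line and band are the median and quartiles of all genes.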

How the data were processed

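Gene expression in 3 AES wildtype and 3 AES knockout samples was taken from the table of values the authors deposited, taken here as log2 values, a base inferred from their range (2.67 to 14.4). No source used here gives the background correction, probe summary or normalization. Of 35512 rows, 1 had no value, 21789 had 1 gene symbol, 1621 several and 12102 none. Rows with 1 symbol were reduced to 19938 genes by the highest 6-array mean. Knockout was compared with wildtype with limma 3.58.1 in R 4.3.3 (lmFit and eBayes, two-sided, no filter, no block), with Benjamini-Hochberg adjustment over all genes, and each factor with an exact permutation test (scipy 1.17.1). The fit was checked on data simulated with independent noise, without the differences between arrays seen here. That check required only that known mean changes were recovered.

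The members and the 6 gene lists and 9 marker lists were chosen with earlier results of these data known. By rule, named genes were the 9 factors, up to 4 per list by smallest unadjusted p, and 3 per factor with a span of at least 1 by profile likeness, leaving out predicted names. Ltf, Csf1r and Cybb were added as examples after their values were seen. Lists were described by counts and medians. Genes under several symbols were not analysed here. The number of arrays limits the precision. The alternatives tried were leaving out each array, array weights, blocking on the replicate number, averaging a gene's rows, plain and trended robust variances, quantile or median scaling, and keeping only genes brighter than the array median on 3 or more arrays. Leaving out wildtype array 3 and knockout array 1 together was chosen after seeing the data. An offset before the log, planned for linear values, was not run.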

Additional observations from a re-analysis of the deposited data

How the results depend on the processing

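Over the 15 alternatives, 0 of 9 factors were called, and the lowest adjusted p of any factor was 0.897. Of 133 comparisons of a factor under an alternative, 123 kept their direction and 10 changed it. Plain and trended robust variances, the replicate block, row averaging and the dim filter could not change a factor's difference. The 123 thus include comparisons whose direction was fixed in advance. With array weights Cebpa turned to -0.0065 and Gfi1 to 0.0475, and with both arrays of lowest neutrophil markers left out Cebpa was -0.0084. Leaving out 1 array gave Spi1 values from -0.0038 to 0.226, Cebpa from -0.0939 to 0.109, Irf8 from -0.483 to 0.165 and Gfi1 from -0.213 to 0.154; the cause was not tested. The count of all genes called went from 0 to 3 without knockout replicate 2 and was 0 otherwise; at an unadjusted p under 0.05 there were 505 genes with limma and 661 without variance moderation. For genes that GFI1 represses, the median was -0.0248 with all arrays. With 1 array omitted it ranged from -0.0583 (without wildtype replicate 3) to 0.126 (without wildtype replicate 1). It was -0.150 without both arrays of lowest neutrophil markers.

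Arrays of the same replicate number shared no more than a number: their deviations from the group means had correlations of -0.26, -0.23 and 0.07. With the replicate block, 0 factors and 0 genes were called, and 459 genes had an unadjusted p under 0.05. The filter on dim genes kept 7 of 9 factors, without Cebpd and Gfi1, for which it gave no value. Dim signal limits Cebpa, Cebpd, Cebpe and Gfi1, whose values lay near or below the array medians and may hold background.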
